A study of Saccharomyces cerevisiae with 9 samples.

Results

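Divergent gene pairs are neighbouring genes on opposite strands whose start codons face the same stretch of DNA, so that transcription leaves this stretch in both directions. The MNase-Seq profiles of such pairs in WT Saccharomyces cerevisiae are described here. The members were found by systematic name alone, since the number in a yeast gene name counts outwards from the centromere and its last letter gives the strand. On a right arm a C gene followed by the next W gene, and on a left arm a W gene followed by the next C gene, form a pair. Of the 2426 genes in the tables, 476 genes formed 238 such pairs and 1950 genes did not.

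The 1 sample used is total histone MNase-Seq from WT cells, in a strain background isogenic to BY4741 and with no deletion of RTR1. It is 1 of 9 samples, of which the ChIP-exo samples (Rpb3-FLAG or Nrd1-TAP, WT or rtr1Δ) were not analysed here. Micrococcal nuclease removes linker DNA, and the DNA left on nucleosomes was sequenced on a SOLiD instrument. The tables give the coverage of each gene as RPM, which is reads scaled to the size of the library, from -500 to 1000 nucleotides (nt) around the transcription start site (TSS) and within 200 nt of the transcription end site (TES). With 1 sample there is no spread between replicates. No test was made, and quartiles give the spread over genes.

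In yeast, the TSS of most active genes lies at the edge of a nucleosome-depleted region, with a well-placed nucleosome just downstream, called +1. Poly(dA:dT) runs and general regulatory factors such as Reb1, Abf1 and Rap1 help to keep such regions free of nucleosomes, and the remodeller RSC takes part. Between divergent genes, 1 depleted region can serve both TSSs, or each TSS can have its own with nucleosomes between them. Genes with related functions, among them the core histones and some ribosomal proteins, occur as such pairs.

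All 476 members were found in the R64 assembly on the strand given in the tables. The partner was the nearest upstream coding gene for 452 members. The start codons of a pair were a median of 621.5 nt apart (quartiles 381 and 884 nt, range 159 to 9706 nt). In 52 pairs they lay over 1000 nt apart, and in 25 pairs another annotated gene stood between them. These were tRNA genes in 16 pairs, protein-coding genes in 12 pairs and snoRNA genes in 2 pairs, where some pairs had more than 1 kind. Of the 52 pairs over 1000 nt apart, 33 had no other gene between them.

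The stretches below were chosen to show the promoters that the results turn on: a pair with very close TSSs, pairs with a deep depletion, the pair with the most unequal +1 signals, the duplicated ribosomal protein pairs and a histone pair. Each is Watson-strand sequence of R64 from RefSeq, read 5′ to 3′, and is limited to bases that lie between the TSSs of both genes by the distance read from the signal. Where these are more than 200 bases, the 200 in the middle are shown, and matches outside them were not marked. Capitals mark matches on either strand to Reb1 (TTACCCG), the TATA box (TATAAA), Gcn4 (TGACTCA), the MCB (ACGCGT), PAC (GCGATGAG), RRPE (AAAATTTT), a run of at least 8 A, Rap1 and Abf1. The gene on the Watson strand is named first in each pair and lies to the right of its stretch.

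THP1-DSC2, chrXV:194857-194913: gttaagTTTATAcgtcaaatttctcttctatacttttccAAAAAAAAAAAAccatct
GVP36-PKP1, chrIX:276351-276466: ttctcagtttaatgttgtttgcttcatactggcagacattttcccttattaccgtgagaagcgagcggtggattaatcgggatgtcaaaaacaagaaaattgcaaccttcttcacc
LHS1-MUD2, chrXI:296231-296392: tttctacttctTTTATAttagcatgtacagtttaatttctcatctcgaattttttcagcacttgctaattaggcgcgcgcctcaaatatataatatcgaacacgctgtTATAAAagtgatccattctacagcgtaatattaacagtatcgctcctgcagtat
NIP7-PUS1, chrXVI:153244-153400: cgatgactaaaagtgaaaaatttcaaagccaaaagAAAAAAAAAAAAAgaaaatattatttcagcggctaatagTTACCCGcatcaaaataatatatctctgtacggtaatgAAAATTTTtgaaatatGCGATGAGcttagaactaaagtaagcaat
RPL13A-RPS16B, chrIV:308007-308206: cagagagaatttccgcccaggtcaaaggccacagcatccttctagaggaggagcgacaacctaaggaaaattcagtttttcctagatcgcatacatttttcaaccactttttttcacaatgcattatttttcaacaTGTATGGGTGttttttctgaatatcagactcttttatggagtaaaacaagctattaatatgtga
RPS16A-RPL13B, chrXIII:551468-551667: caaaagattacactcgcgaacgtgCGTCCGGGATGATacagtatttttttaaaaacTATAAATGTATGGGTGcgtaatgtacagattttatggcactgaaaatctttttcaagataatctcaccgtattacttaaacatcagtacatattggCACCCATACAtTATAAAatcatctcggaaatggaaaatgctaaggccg
HHT1-HHF1, chrII:255908-256107: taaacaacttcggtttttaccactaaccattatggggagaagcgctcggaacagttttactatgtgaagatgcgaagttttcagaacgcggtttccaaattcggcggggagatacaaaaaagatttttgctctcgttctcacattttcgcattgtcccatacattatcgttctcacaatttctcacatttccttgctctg

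In the promoter of THP1 and DSC2 a run of A and a TATA match share 57 bases between the TSSs, with a GC content of 24.6%. NIP7 and PUS1 have matches to Reb1, RRPE and PAC and a run of A within 157 bases. The letters shown for GVP36 and PKP1, and the 200 in the middle for HHT1 and HHF1, hold no match to these motifs. Both ribosomal protein pairs are copies of each other, and the 200 bases shown of each hold Rap1 matches. Those of RPS16A and RPL13B also hold an Abf1 match and TATA matches, of which 1 adjoins a Rap1 match without overlap.

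Averaged over all members, the profile at the TSS was close to that of the other genes. The mean signal of the members was lowest at -82.5 nt with 4.17 RPM, against -82.5 nt and 4.12 RPM in the other genes. The +1 peak stood at 31.7 nt with 9.07 RPM in members and at 28.7 nt with 9.03 RPM in the other genes. The first upstream peak stood at -233 nt with 7.92 RPM in members and at -236 nt with 7.80 RPM in the other genes. Positions come from bins of 25 nt, and these differences are smaller than a bin.

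**Figure D1:**
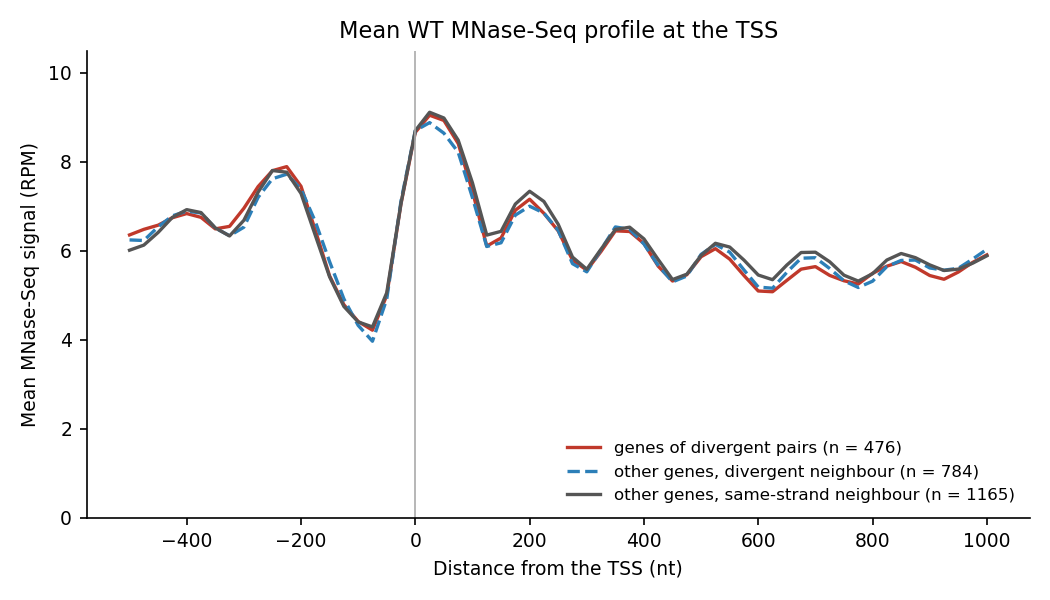
Mean WT MNase-Seq signal in RPM against the distance from the TSS in nt, for the 476 genes of divergent pairs, for 784 other genes with a divergent upstream neighbour and for 1165 other genes with a same-strand upstream neighbour. The 3 lines run together, with a minimum near -82.5 nt of 4.17 RPM in the genes of divergent pairs, and a +1 peak of 9.07 RPM.

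Single genes were compared over fixed bins. The median signal over the depletion bins, which are 4 bins of 25 nt with the nearest at 50 nt upstream of the TSS, was 4.48 RPM in members (quartiles 3.27 and 5.81) and 4.34 RPM in the other genes (3.22 and 5.70). Over the +1 bins, from 0 to 75 nt, it was 8.67 RPM in members (7.47 and 10.03) and 8.79 RPM in the other genes (7.46 and 10.1). Over the upstream bins, 4 bins with the nearest at 200 nt upstream, it was 7.60 RPM in members (5.72 and 9.38) and 7.61 RPM in the other genes (5.73 and 9.32). The quartiles of both groups overlapped almost fully in each set of bins.

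The ratio of the +1 bins to the depletion bins was at least 2 in 227 of 476 members (47.7%), in 983 of 1946 other genes (50.5%), and in 50% of all genes with a ratio. It was under 1, with more signal upstream of the TSS than at +1, in 46 members (9.66%) and in 164 other genes (8.43%), and in 8.67% of all genes. The upstream bins exceeded the +1 bins in 169 members (35.5%), in 700 of 1950 other genes (35.9%), and in 35.8% of all genes. These shares of the members lie near those of all genes.

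The likeness of the means hides a dependence on the distance between the genes. In members with start codons 250 to 400 nt apart, the median signal was 3.74 RPM over the depletion bins and 8.68 RPM over the upstream bins (52 pairs). In those 400 to 600 nt apart these medians were 4.39 and 8.21 RPM (53 pairs), and in those over 600 nt apart they were 4.99 and 6.93 RPM (121 pairs). The closest class, under 250 nt, held 24 genes with medians of 4.29 RPM over the depletion bins and 7.98 RPM over the upstream bins. These fixed bins can reach past the TSS of a close partner. The mean profile of this class had the lowest minimum of the member classes, at 3.26 RPM, against 3.36, 3.74 and 4.77 RPM. From 250 nt on, more widely spaced members thus had more signal in the depletion bins and less in the upstream bins.

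Genes outside the pairs that have a same-strand upstream neighbour showed another order over the upstream bins. Their medians were 8.15 RPM under 250 nt (144 genes), 7.85 RPM at 250 to 400 nt (393 genes), 7.20 RPM at 400 to 600 nt (320 genes) and 7.52 RPM over 600 nt (308 genes). The distance is here that to the upstream coding sequence. Members had higher upstream medians at 250 to 400 nt and at 400 to 600 nt, and lower ones under 250 nt and over 600 nt, although the quartile ranges overlapped in every class. The 784 other genes with a divergent upstream neighbour resembled the members from 250 nt on, with 8.26 RPM under 250 nt, 8.59 RPM at 250 to 400 nt, 7.80 RPM at 400 to 600 nt and 6.74 RPM over 600 nt.

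The signal over the depletion bins was higher at longer distances in the same-strand group too, with medians of 3.72, 4.04, 4.55 and 5.11 RPM from the shortest to the longest class. Ratios of at least 2 occurred in 10 of 24 members under 250 nt (41.7%), in 66 genes of the 52 pairs at 250 to 400 nt (63.5%), 66 of 106 at 400 to 600 nt (62.3%) and 85 of 242 over 600 nt (35.1%). In the same-strand group the shares were 64.6%, 57.5%, 50.5% and 39.3% in that order of classes. In the other genes with a divergent upstream neighbour they were 57.7%, 65.2%, 47.1% and 37.6%. The share was thus highest at 250 to 400 nt in members and in these genes, and in the closest class of the same-strand genes. Where divergent genes are closest, the depletion bins can reach past the TSS of the neighbour. The lower shares there do not measure a shallower depletion.

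**Figure D2:**
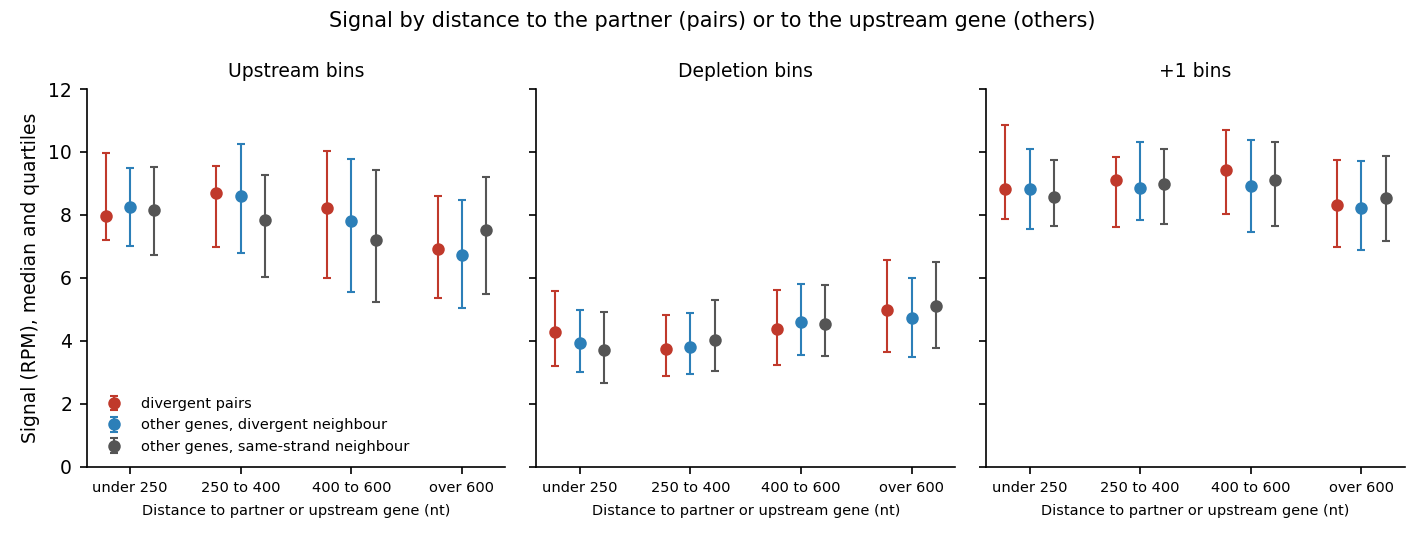
Median signal in RPM with quartiles (bars) over the upstream, depletion and +1 bins, for genes of divergent pairs by the distance between the start codons in nt, and for other genes with a divergent or a same-strand upstream neighbour by the distance to the upstream coding sequence in nt. In divergent pairs the upstream median is 8.68 RPM at 250 to 400 nt and 6.93 RPM over 600 nt, against 7.85 and 7.52 RPM in genes with a same-strand neighbour.

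The distance between start codons includes the 5′ leaders of both transcripts. The distance between the TSSs was therefore read from the signal. Where TSSs are close, the profile of a gene and the reversed profile of its partner cover the same bases, and they must coincide once shifted by the distance between the TSSs. A pair was called matched where the smallest median difference between the shifted profiles was at most 10%, with a correlation of at least 0.9 over at least 300 nt.

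In this way 175 of 238 pairs were matched, namely 12 of 12 pairs with start codons under 250 nt apart, 50 of 52 at 250 to 400 nt, 52 of 53 at 400 to 600 nt and 61 of 121 over 600 nt. None of the 32 pairs over 1300 nt apart, whose windows share few or no bases, was matched. In matched pairs the median difference between the profiles was 4.61% and the median correlation was 0.974. In the pairs over 1300 nt the best difference ranged between 9.84% and 49.9%, with a median correlation of 0.280. The choice by highest correlation gave a distance within 10 nt in all 175 matched pairs.

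The TSSs of matched pairs lay a median of 294 nt apart (quartiles 208.5 and 455.5 nt, range 31 to 684 nt). The start codons lay a median of 139 nt further apart than the TSSs, which is the summed length of both 5′ leaders (quartiles 75 and 220.5 nt). Across the 175 pairs the TSS distance and the start codon distance had a Pearson r of 0.745 and a Spearman rho of 0.777. The points share the stretch between the TSSs, so that this is a description only.

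The TSS distances were not spread evenly. There was 1 pair under 100 nt, 32 pairs at 100 to 200 nt, 56 at 200 to 300 nt, 19 at 300 to 400 nt, 28 at 400 to 500 nt, 22 at 500 to 600 nt and 17 at 600 to 700 nt. The most frequent spacing was thus 200 to 300 nt, followed by a dip at 300 to 400 nt. In 3 pairs the TSSs lay further apart than the start codons, which places at least 1 TSS within a coding sequence. They are MOG1-OPI3, YGR079W-PAC10 and TAF13-ARG81, of which the last 2 are named after their values were seen. The shortest TSS distance, 31 nt, was that of ADH4 and MNT2, also named after their values were seen, whose start codons lie over 1000 nt apart. The summed leaders would then be 970 nt, and the signal between these TSSs was nowhere below 6.24 RPM.

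**Figure D3:**
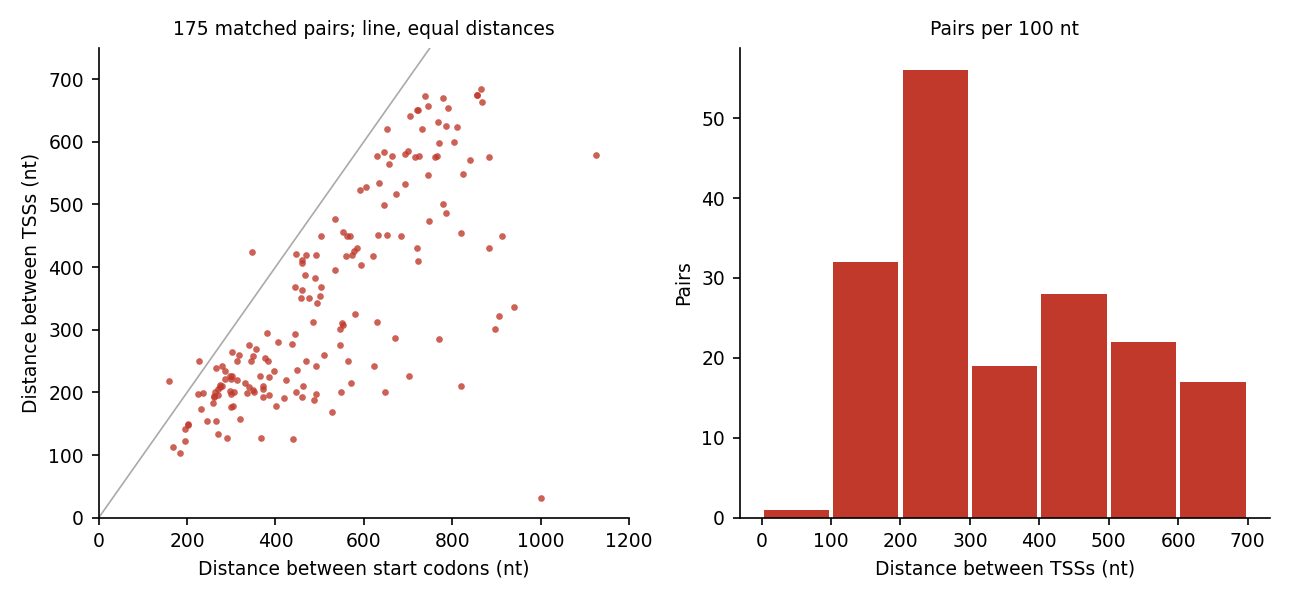
Left, the distance between TSSs against the distance between start codons, both in nt, for the 175 matched pairs (points), with a line of equal distances. Right, the number of pairs per 100 nt of TSS distance, with 56 pairs at 200 to 300 nt and 19 at 300 to 400 nt.

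The mean signal between the TSSs changed in form with their distance, although single pairs departed from it. The mean of pairs with TSSs under 250 nt apart had 1 depleted region. That of pairs at 400 to 600 nt had a peak in the middle with a minimum on either side. The mean at 250 to 400 nt lay between these forms. In the 69 pairs under 250 nt the mean signal at the midpoint was 3.57 RPM. It was 4.79 RPM in the 39 pairs at 250 to 400 nt, 7.83 RPM in the 50 pairs at 400 to 600 nt and 5.87 RPM in the 17 pairs over 600 nt.

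At 400 to 600 nt the central peak of the mean profile reached 7.86 RPM at 4 nt from the midpoint. The minima on either side stood at -148 nt with 4.84 RPM and at 149 nt with 4.60 RPM. Over 600 nt the minima stood at -254 nt with 3.85 RPM and at 223 nt with 3.57 RPM, and the signal between them formed more than 1 peak. The outer +1 peaks of both genes lay 241, 357, 571 and 739 nt apart from the closest class to the widest. The median TSS distance at 400 to 600 nt was 475 nt, which puts the midpoint near the first upstream peak of other genes. In the mean of the same-strand group that peak stood at -239 nt with 7.86 RPM, against a minimum of 4.23 RPM.

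The central signal exceeded the mean depletion of the pair in 29 of 69 pairs under 250 nt (42%), in 13 of 39 at 250 to 400 nt (33.3%), in 40 of 50 at 400 to 600 nt (80%) and in 14 of 17 over 600 nt (82.4%). Other genes have no such midpoint, and no share was computed for them. In the closest class the depletion bins of both genes and the centre share bases, and in the closest pairs the depletion bins reach past the TSS of the partner. The median signal over the +1 bins was 9.35 RPM under 250 nt, 8.68 RPM at 250 to 400 nt, 8.39 RPM at 400 to 600 nt and 8.19 RPM over 600 nt. The point of lowest signal between the TSSs lay a median of 61, 90, 93 and 95 nt from the nearer TSS in these classes. The median TSS distances were 200, 295, 475 and 651 nt. In close pairs no point between the TSSs can lie far from one, so these values do not show a preferred place.

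**Figure D4:**
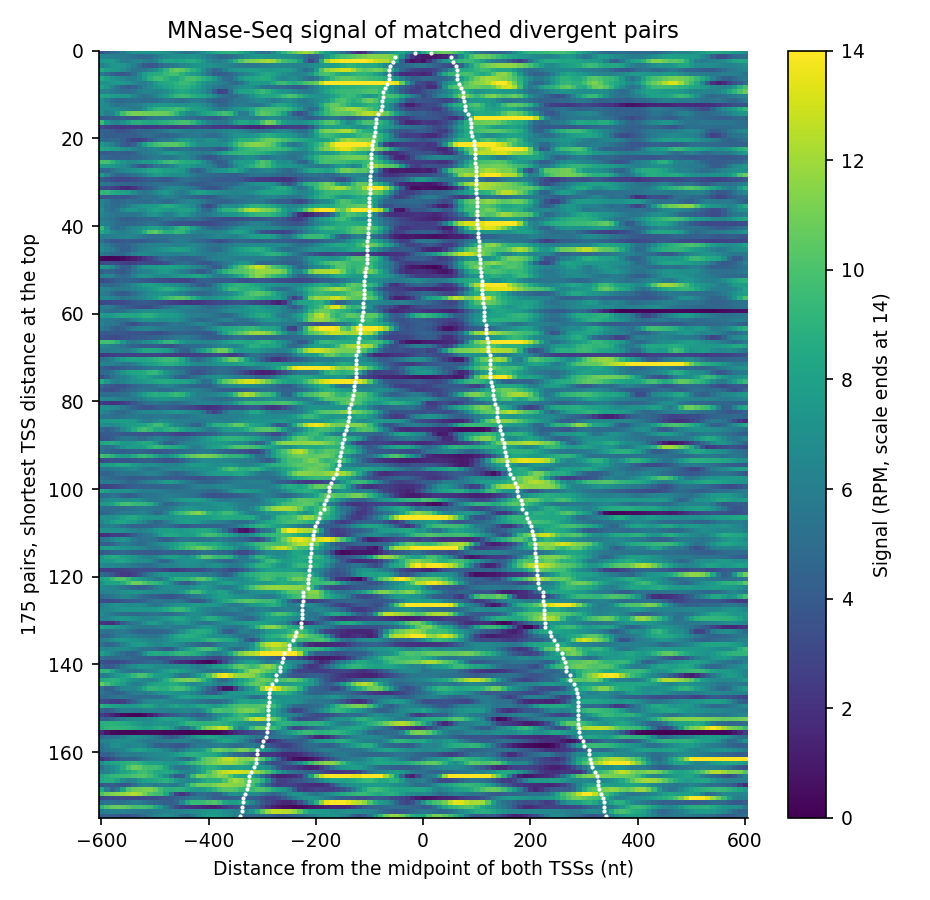
MNase-Seq signal in RPM (colour, scale ends at 14) of the 175 matched pairs, 1 row per pair, against the distance from the midpoint of both TSSs in nt. White dots mark the TSSs. A dark stretch fills the space between the dots in most of the upper rows. A bright band appears at the midpoint in most rows of pairs at 400 to 600 nt, with 7.83 RPM in their mean. Over 600 nt the mean formed more than 1 peak, with 5.87 RPM at the midpoint.

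**Figure D5:**
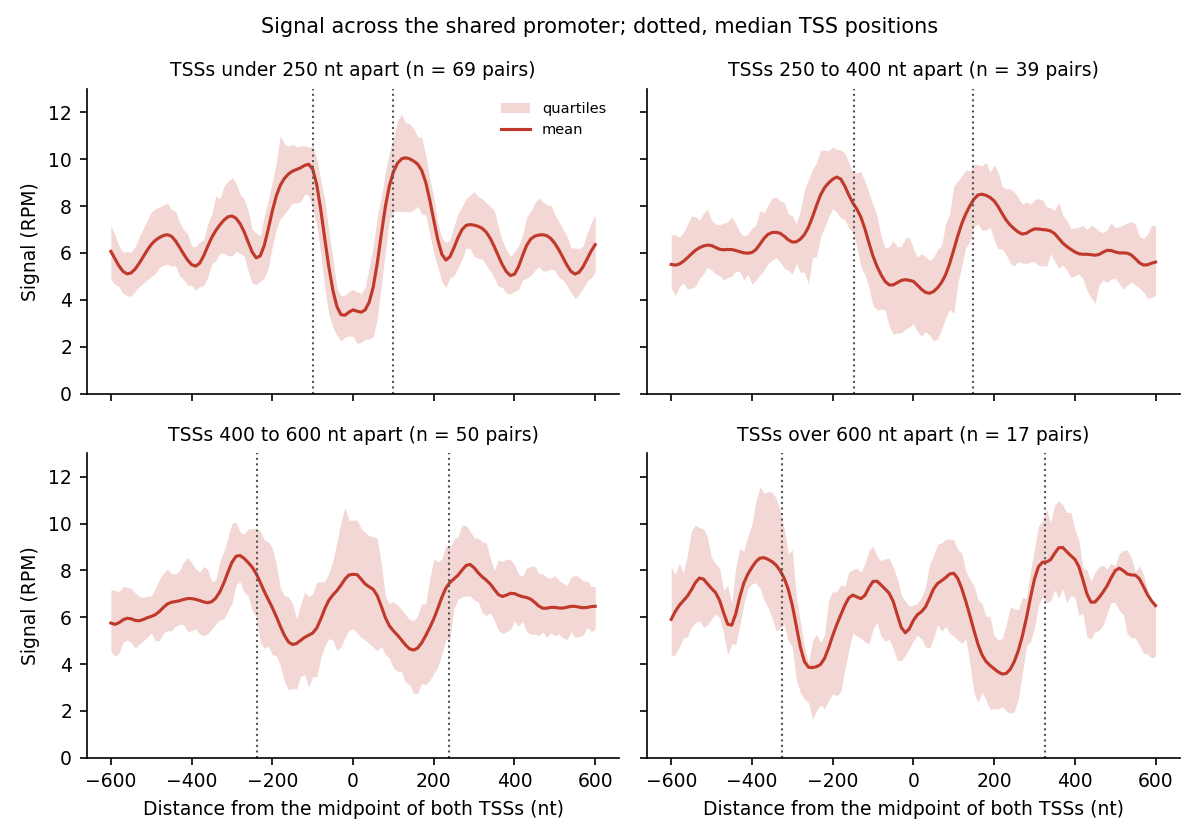
Mean signal in RPM (line) and quartiles (band) against the distance from the midpoint of both TSSs in nt, in 4 classes of TSS distance, with the gene on the Watson strand to the right. Dotted lines mark the median TSS positions. The mean at the midpoint is 3.57 RPM under 250 nt, 4.79 RPM at 250 to 400 nt, 7.83 RPM at 400 to 600 nt and 5.87 RPM over 600 nt.

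The upstream signal was also read from the side of a single gene. In the mean profile of members with TSSs under 250 nt apart, the highest upstream signal stood at -227 nt, and the median TSS distance of these pairs was 200 nt. At 250 to 400 nt it stood at -336 nt with a median TSS distance of 295 nt, so that in both classes it lay just beyond the TSS of the partner. At 400 to 600 nt it stood at -212 nt, with the TSS of the partner at a median of 475 nt, and over 600 nt at -228 nt. Same-strand genes under 250 nt from the upstream coding sequence had this peak at -228 nt too. In their wider classes it stood at -242, -241 and -240 nt. The position in the closest pairs was thus also that of genes without such a partner. When the members were grouped by start codons instead, the upstream peak stood at -226, -244, -233 and -230 nt from the closest class to the widest.

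The depletion signals of partners went together in close pairs, where the depletion bins can share bases. Across pairs, the depletion signals of both genes had a Spearman rho of 0.72 (Pearson r 0.72) in the 12 pairs with start codons under 250 nt apart. The rho was 0.57 (r 0.53) in the 52 pairs at 250 to 400 nt, of which not all have depletion bins that share bases. It was -0.03 (r -0.12) in the 53 pairs at 400 to 600 nt and 0.08 (r 0.11) in the 121 pairs over 600 nt. The +1 signals had a rho of 0.25 (r 0.19) over all 238 pairs, and those over the gene body, from 150 to 1000 nt, 0.27 (r 0.26). All points come from 1 library, and neighbouring regions share base composition.

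Both genes had a ratio of at least 2 in 65 pairs (27.3%), 1 gene in 97 pairs (40.8%) and neither in 76 pairs (31.9%). Both passed it in 24 of 52 pairs at 250 to 400 nt, in 21 of 53 at 400 to 600 nt and in 18 of 121 over 600 nt. Of the 12 pairs under 250 nt, 2 had both genes past it, and their depletion bins can cover the partner gene. Over single genes, the share with a ratio of at least 2 was 47.7% in members and 50% in all genes. The split that unrelated partners would give was not computed.

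The pairs with the closest start codons differed in their depletion. THP1, of the TREX-2 complex for mRNA export, and DSC2, of a Golgi ubiquitin ligase complex, have start codons 169 nt apart and TSSs 113 nt apart. The signal at their midpoint was 1.32 RPM, and over the +1 bins it was 8.0 RPM at THP1 and 13 RPM at DSC2. VAM7, a vacuolar SNARE, and SKI8, of the Ski complex in mRNA decay, have start codons 184 nt apart, and the midpoint signal was 1.03 RPM. In contrast, MOG1, a nuclear import factor, and OPI3, a phospholipid methyltransferase, with start codons 159 nt apart, had no clear depletion: the signal between their TSSs was nowhere below 5.51 RPM.

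In VAM7 and SKI8 the +1 signals were 7.88 and 10.8 RPM in that order, and in MOG1 and OPI3 they were 7.56 and 5.83 RPM. The depletion bins held 6.50 RPM at MOG1 and 6.26 RPM at OPI3, both above the upper quartile of members. OPI3 is among the members with a ratio under 1, at 0.931.

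The lowest signal over the depletion bins was measured between ERC1, a transporter, and RRM3, a DNA helicase that helps replication forks past protein-bound sites. These genes had 0.834 and 0.908 RPM over the depletion bins and 4.76 and 5.99 RPM over the +1 bins, with TSSs 205 nt apart. NIP7, a factor of large ribosomal subunit assembly, and PUS1, a tRNA pseudouridine synthase, came next. They had 1.26 and 1.22 RPM over the depletion bins, 11.1 and 6.81 RPM over the +1 bins, and ratios of 8.80 and 5.56.

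LHS1, an Hsp70 chaperone of the endoplasmic reticulum, and MUD2, a splicing factor, had 1.01 and 2.25 RPM over the depletion bins. Their +1 bins held 11.2 and 11.8 RPM, and their ratios were 11.1 and 5.26. All 3 of these pairs have start codons under 400 nt apart, at 373, 345 and 236 nt. The stretch of NIP7 and PUS1 with its PAC, RRPE and Reb1 matches, and that of LHS1 and MUD2 with its TATA matches, are printed above.

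The highest signals over the depletion bins belonged to distant pairs and to a histone pair. THI22, related to thiamine biosynthesis, and CLB5, an S-phase cyclin, are 3400 nt apart with a tRNA gene between them, and had 9.31 and 8.34 RPM over the depletion bins. MSP1, an ATPase of the outer mitochondrial membrane, and RPS25A, a ribosomal protein gene, are 7744 nt apart with a tRNA gene and 2 annotated coding genes between them, and had 9.99 and 7.59 RPM. Neither pair was matched.

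The 2 pairs with the longest distance were ARO3, of aromatic amino acid synthesis, with LYS14, an activator of lysine genes, at 9706 nt, and BMH2, a 14-3-3 protein, with GRX3, a glutaredoxin, at 8676 nt. They had 7.39 and 6.72 RPM at ARO3 and LYS14, and 5.26 and 3.81 RPM at BMH2 and GRX3, over the depletion bins. tRNA genes and further coding genes stand between the genes of both pairs.

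The +1 signals of partners differed by a median of 1.69 RPM, with a few large exceptions. GVP36, a protein of Golgi vesicles, had 25.3 RPM over its +1 bins, and PKP1, a kinase of the pyruvate dehydrogenase complex, had 5.06 RPM. Their TSSs lie 174 nt apart, the profiles matched with a difference of 1.10%, and the depletion bins held 3.18 and 3.19 RPM. The upstream bins of PKP1, which cover the start of GVP36, held 29 RPM.

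SYF1, a splicing factor, had 11.6 RPM over the +1 bins, and its partner YDR415C had 27.1 RPM, with TSSs 133 nt apart. The midpoint between them had 2.77 RPM. In the third pair, RPL30 had 11.8 RPM and RPL24A had 3.61 RPM, but their start codons are 1156 nt apart and the profiles were not matched.

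The core histone genes HHT1 (histone H3), HHF1 (histone H4), HTA1 (histone H2A) and HTB1 (histone H2B) were members, as 2 pairs. All 4 had a ratio under 1, against a share of 8.67% of all genes. Over the depletion bins HHT1 and HHF1 had 7.50 and 8.96 RPM and HTA1 and HTB1 had 6.58 and 11.4 RPM. Over the +1 bins HHT1 and HHF1 had 6.25 and 2.48 RPM and HTA1 and HTB1 had 4.86 and 7.79 RPM.

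The TSSs of HHT1 and HHF1 lay 583 nt apart, and the signal was 10.8 RPM at the midpoint with a lowest value of 4.04 RPM. The start codons of HTA1 and HTB1 lie 817 nt apart and the pair was not matched. The 1 core histone gene outside the pairs, HTA2 (histone H2A), also had a ratio under 1, at 0.492. Unique 50-mers made up 96.1% to 100% of the windows of these 4 genes. Stretches that differ from another copy by 1 base count as unique here. The part of near-identical histone copies in these values was not tested.

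Of the cytosolic ribosomal protein genes, 22 were members and 89 were not. The ratio was at least 2 in 5 of 22 members and 34 of 89 others. The share was 47.7% over all members and 50% over all genes with a ratio. The median signal over the depletion bins was 4.95 RPM in both ribosomal protein groups. In 4 pairs both genes encode ribosomal proteins: RPL13A-RPS16B, RPS16A-RPL13B, RPL39-RPS22A and RPL30-RPL24A. The first 2 are the same arrangement on chromosomes IV and XIII, with paralogous genes on either side.

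The TSSs lay 534 nt apart in RPL13A-RPS16B and 651 nt in RPS16A-RPL13B, with midpoint signals of 5.86 and 5.78 RPM. RPL13A and RPL13B had 3.68 and 3.88 RPM over the depletion bins, and RPS16B and RPS16A had 2.72 and 7.39 RPM. Over these bins the L13 side was thus alike in both copies and the S16 side was not. The order was the reverse in the other bins. Over the +1 bins RPL13A and RPL13B had 8.39 and 10.1 RPM, and RPS16B and RPS16A had 9.86 and 8.51 RPM. Over the upstream bins the L13 genes had 5.49 and 8.76 RPM and the S16 genes 5.94 and 4.52 RPM. The paralogs share coding sequence, and unique 50-mers made up 99.7% or more of each window. The part of shared sequence in these values was not tested.

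RPL39 and RPS22A, with TSSs 578 nt apart, had 5.22 and 4.21 RPM over the depletion bins and a midpoint signal of 2.79 RPM, below the lower quartile of 5.64 RPM in the 400 to 600 nt class. In the other lists, 6 of 23 mitochondrial ribosomal protein genes, 4 of 20 proteasome genes and 1 of 7 mediator and RNA polymerase II genes were members, with no pair inside a list. A ratio of at least 2 was measured in 4 of these 6, 3 of these 4 and this 1 gene. In the other genes of the same lists it was measured in 12 of 17, 12 of 16 and 5 of 6 in that order. The share over all genes with a ratio was 50%. The 1 galactose gene in the tables was not a member, nor was any gene that the study names for its transcripts.

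In most motifs the promoters of members differed little from those of all other genes, which include 784 genes with a divergent upstream neighbour. In a window from 250 nt before to 50 nt after the start codon, a TATA match was found in 42% of members, 43.5% of other genes and 43.2% of all genes. A run of at least 8 A was found in 31.9% of members and 32.7% of other genes, with 32.5% over all genes. Matches to Abf1 stood in 8.82% of members and 8.31% of other genes (8.41% over all genes), and those to Reb1 in 10.3% of members and 8.16% of other genes (8.58% over all genes). The median GC content of the 250 nt before the start codon was 35.6% in members and 34.8% in other genes. In the 1165 genes with a same-strand upstream neighbour alone, it was 34.4%. A TATA match was found in 48.2% of these genes, a run of A in 34.8%, Abf1 in 7.21% and Reb1 in 8.33%. TATA matches were thus less frequent in members than in the same-strand group.

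PAC, an element of ribosome biogenesis promoters, was the motif that differed most in relative terms. It was found in 41 of 476 members (8.61%), in 80 of 1949 other genes (4.10%) and in 4.99% of all genes. In the same-strand group alone it stood in 45 of 1165 genes (3.86%). In close pairs the windows of both genes overlap and 1 match is counted for both. RRPE, often found with PAC, stood in 14.5% of members and 10.9% of other genes (11.6% over all genes). Gcn4 matches were found in 2.52% and 2.98%, the MCB in 2.31% and 3.80% and Rap1 in 1.05% and 0.667% of members and other genes in that order, with 2.89%, 3.51% and 0.742% over all genes.

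Counted per pair over the whole stretch between the start codons, PAC was found in 15 of 52 pairs at 250 to 400 nt (28.8%). It was found in 0 of 12 pairs under 250 nt, 3 of 53 at 400 to 600 nt and 11 of 121 over 600 nt, although longer stretches have more positions for a match. No share over stretches of these lengths at other genes was computed, so these counts have no background. Among pairs under 600 nt, the median pair depletion was 3.54 RPM in 18 pairs with PAC (quartiles 2.30 and 4.15) and 4.43 RPM in 99 pairs without (3.52 and 5.07). The pairs with PAC were also closer, with a median start codon distance of 310 nt against 401 nt, and the part of this distance in the difference was not tested. With Reb1 the median pair depletion was 4.19 RPM in 17 pairs, against 4.20 RPM in 100 pairs without.

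The 3′ ends were not used to choose the members. The median signal over the TES bins, from -30 to 80 nt, was 5.74 RPM in members and 6.13 RPM in other genes. Over the bins upstream, from -140 to -70 nt, it was 7.31 RPM in members and 7.48 RPM in other genes. The upstream bins exceeded the TES bins in 305 of 476 members (64.1%), in 1186 of 1948 other genes (60.9%), and in 61.5% of all genes.

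This signal differed more with the orientation of the downstream neighbour than with membership. With a convergent downstream neighbour the TES median was 6.48 RPM in 165 members and 6.81 RPM in 622 other genes. With a same-strand downstream neighbour it was 5.38 RPM in 311 members and 5.56 RPM in 1326 other genes. Convergent neighbours were found at 34.7% of members and 31.9% of other genes. Divided by the mean of each gene over the TES window, the members stood at 0.911 and the other genes at 0.920, and these values lay closer together than the unscaled medians.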

How the data were processed

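Total histone MNase-Seq of WT cells was used. The authors aligned the SOLiD reads to sacCer3 using bfast, and ngs.plot gave the coverage signal, which they deposited in RPM with 101 columns per gene. The first and the last 20 columns hold only the edge value, and the 61 between them were used. The annotation of TSSs and the extension of reads are not given in the sources used here. The methods name 2 biological replicates per genotype for average gene plots of RNA polymerase II gene classes, without naming MNase-Seq, and whether the tables pool replicates is not given in the sources used here. Extension and averaging into bins smooth narrow depletions. Edge values are whole multiples of 0.0300 RPM, or 1 read in 33313664, so that a median of 149 reads covered a base of the depletion bins of members and 289 a base of the +1 bins. Counting error is thus small beside the spread over genes.

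Gene order, start codons and sequence came from the RefSeq annotation of R64, the assembly of sacCer3, in which 2425 of the 2426 genes were found. The members and lists were chosen with earlier results of these data known. Of the other genes, 4 had no signal over the depletion bins and no ratio. Profiles of partners were interpolated with a cubic spline to 1 nt and compared at TSS distances of up to 700 nt, with 0.1 RPM added to the mean in each relative difference. The matching was tested on simulated data, and the limit was lowered from 800 to 700 nt after the data had been seen. The named pairs are those with both genes in 1 list, the classic divergent pairs, and 3 pairs for each of several extremes. These are the shortest and longest start codon distance, the lowest and highest mean signal over the depletion bins and the largest +1 difference. Computations used Python (3.11.15) with pandas (2.3.3), numpy (2.4.6) and scipy (1.17.1), and figures were drawn with matplotlib (3.10.9). Alternatives cover the average, the scale of genes, the bins and the genes used.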

Additional observations from a re-analysis of the deposited data

How the results depend on the processing

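With 1 library no replicate could be left out, and no value has an error over cultures. No paired analysis was possible because there was 1 sample. Of 58 alternative values, 43 stayed within the binomial 95% interval of the main value over genes, within its quartiles (GC content) or within 12.5 nt. The medians of members over those of other genes ranged from 1.00 to 1.04 over the depletion bins, from 0.970 to 1.01 over the +1 bins and from 0.997 to 1.02 over the upstream bins. At the TES this value was 0.937, and 0.991 with genes scaled to their own mean. The share of members with a ratio of at least 2 was 30.5% with wider bins, against 29.9% of other genes, and 69.5% with a ratio of 1.5, against 71.1%. The upstream peak of pairs under 250 nt stood at -196 nt with the median over genes. Grouped by TSS distance, it stood at -336 nt at 250 to 400 nt and at -212 nt at 400 to 600 nt. Over the whole stretch between start codons, which is mostly longer than the promoter window, more pairs held each motif, with 12.2% for PAC, 68.5% for TATA, 55.5% for a run of A, 24.8% for RRPE, 22.7% for Abf1, 20.6% for Reb1, 7.14% for Gcn4 and for the MCB, and 4.20% for Rap1. With TSS distances of up to 800 nt and at least 200 nt shared, 182 pairs were matched, a median of 304 nt apart. This alternative and those by downstream neighbour at the TES were chosen after seeing the data. The +1 ratio depends on table TSSs whose source is not known, and TSS distances over 700 nt were not read.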
